A study of Homo sapiens with 8 samples.

Results

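The genes followed here restrict retroelements. They were chosen by name because their products act on the same elements as MOV10, and they are described across HEK293F cells in which MOV10 had been raised or lowered. All 10 of the 10 named genes were found among the 23368 gene symbols counted, and all 10 were among the 15254 genes with enough reads to be tested. HEK293F is an established human cell line of embryonic kidney origin. Overexpression cells received a single transfection with a plasmid for myc-tagged MOV10 (3 libraries). Knockdown cells received MOV10 siRNA 3 times at intervals of 24 h (2 libraries), and control cells received an irrelevant siRNA on the same schedule (3 libraries). The control for overexpression therefore differs in what was delivered as well as in MOV10, and these cannot be told apart. Separate cultures are not named in the labels, so each p-value speaks only for the spread among these 8 libraries, part or all of which may be technical. In such bulk samples, fewer cells of a type and less RNA per cell cannot be told apart.

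Retroelements such as LINE-1 copy themselves through an RNA that is reverse transcribed into DNA, and cells act against several steps of that cycle. APOBEC3 proteins are cytidine deaminases that mutate or block the reverse-transcribed DNA, SAMHD1 hydrolyses the deoxynucleotides from which it is made, and TREX1 degrades cytosolic DNA. ZC3HAV1, also called ZAP, binds foreign and retroelement RNA that is rich in CpG. SETDB1 and MORC2 act on chromatin: SETDB1 writes H3K9 methylation, and MORC2 is an ATPase that compacts chromatin with the HUSH silencing complex. MOV10 itself is an RNA helicase that binds retroelement RNA.

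The libraries held between 12.7 M and 32.8 M counted reads. MOV10 averaged 2780 ± 284 CPM (read counts scaled to TMM-adjusted library size) with overexpression (SD, n = 3), 53.1 ± 3.47 CPM with knockdown (n = 2) and 81.5 ± 8.44 CPM in control cells (n = 3), which fits the labels. Of 8 markers of the HEK293 line, 7 reached a mean of 1 CPM, and FABP7 did not. Blood cells, in which APOBEC3 genes and SAMHD1 are known to be abundant, left little trace: PTPRC, CD3E and MS4A1 stayed at or under 0.0767 CPM in each library. The summed level of 10 blood markers was 208 to 218 CPM with overexpression, 183 CPM in both knockdown libraries and 239 to 241 CPM in control cells, nearly all of it from LCP1. Markers of mature kidney tubule were at 0 in all libraries for 3 of 9 genes, and their summed level, mostly LRP2, was 45.6 to 52.3 CPM with overexpression, 36.7 to 41.5 CPM with knockdown and 32.5 to 34.4 CPM in control cells. The part of these shifts in the results below was not tested.

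The APOBEC3 genes stand side by side in the genome, in the order APOBEC3A, APOBEC3B, APOBEC3C, APOBEC3D, APOBEC3F, APOBEC3G and APOBEC3H, between CBX6 and CBX7. They arose by duplication and still share stretches of sequence, which limits how well reads can be assigned to one of them. APOBEC3D and APOBEC3F share an identical run of 222 coding bases, the longest between any pair of the family, shown here because a read that falls within it cannot be told apart. In APOBEC3F it covers coding bases 698 to 919, counted from 1 at the start codon, and spans an intron (chr22:39049556-39052269, GRCh38, plus strand).
APOBEC3D and APOBEC3F, identical run: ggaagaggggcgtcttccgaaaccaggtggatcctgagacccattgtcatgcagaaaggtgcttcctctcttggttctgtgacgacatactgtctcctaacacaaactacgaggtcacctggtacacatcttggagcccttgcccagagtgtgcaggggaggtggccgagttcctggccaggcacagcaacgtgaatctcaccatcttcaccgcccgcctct

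Where that run ends, APOBEC3D and APOBEC3F begin to differ. The next 4 lines give 60 coding bases around its end in APOBEC3F, at chr22:39052240-39052299 on the plus strand (GRCh38, GENCODE 29), with the best ungapped match in each of 3 relatives: chr22:39031860-39031919 in APOBEC3D, chr22:39017932-39017991 in APOBEC3C and chr22:39081102-39081161 in APOBEC3G, all within 1 coding exon on that strand. Capitals mark bases that differ from APOBEC3F.
APOBEC3F: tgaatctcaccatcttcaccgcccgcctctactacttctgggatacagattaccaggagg
APOBEC3D: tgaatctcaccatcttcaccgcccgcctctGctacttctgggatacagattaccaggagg
APOBEC3C: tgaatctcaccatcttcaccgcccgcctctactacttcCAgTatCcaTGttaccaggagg
APOBEC3G: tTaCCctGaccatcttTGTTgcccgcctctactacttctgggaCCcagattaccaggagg
APOBEC3D differed at 1 of the 60 bases, APOBEC3C at 6 and APOBEC3G at 10. Over whole transcripts, 16.9% of the 50-base words of APOBEC3G also occurred in APOBEC3F, and 25.5% of those of APOBEC3B occurred in APOBEC3A. By contrast, 1.16% of the words of APOBEC3C, 0.477% of those of SAMHD1, 0.498% of those of ZC3HAV1, 0.0491% of those of MORC2 and 0 of those of SETDB1 occurred in any other gene. How reads with several alignments were counted is not given in the sources used here, so the values of APOBEC3B, APOBEC3D, APOBEC3F and APOBEC3G are less certain than those of APOBEC3C, SAMHD1, ZC3HAV1, SETDB1 and MORC2. TREX1 is also uncertain, since 84.1% of its words occur in ATRIP, within which it lies. In addition, 83.2% of the exon length of APOBEC3D lies on the same strand within exons of the annotated gene AL022318.4.

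In levels per kilobase of exon, the chromatin and RNA-binding members were the most abundant in control cells. SETDB1 stood at 24.0 ± 0.429 CPM per kb (SD, n = 3, as for the other control levels), ZC3HAV1 at 17.6 ± 0.70, MORC2 at 15.9 ± 0.634, APOBEC3C at 9.10 ± 0.163 and SAMHD1 at 7.87 ± 0.373 CPM per kb. APOBEC3F followed at 4.22 ± 0.392 and APOBEC3B at 2.88 ± 0.149 CPM per kb. The lowest were APOBEC3D at 1.33 ± 0.249, TREX1 at 1.29 ± 0.0839 and APOBEC3G at 1.16 ± 0.139 CPM per kb, and the control libraries of these last genes overlapped, so their order is not set. Every other pair of neighbours in the order was apart in all 3 control libraries. ZC3HAV1 and MORC2 were only just apart, with a lowest library of 16.77 and a highest of 16.66 CPM per kb. That spread does not cover errors in exon length, taken from another build than the counts, nor reads shared among APOBEC3 genes. The order of close neighbours is therefore less certain than the libraries alone show. The order differed with the level of MOV10 in places: with overexpression APOBEC3G stood at 2.28 ± 0.141 CPM per kb, above all libraries of APOBEC3D and TREX1 (1.52 ± 0.174 and 1.46 ± 0.453 CPM per kb). With knockdown SAMHD1 stood at 11.6 ± 0.628 CPM per kb (n = 2), above APOBEC3C at 10.5 ± 0.316.

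**Figure D1:**
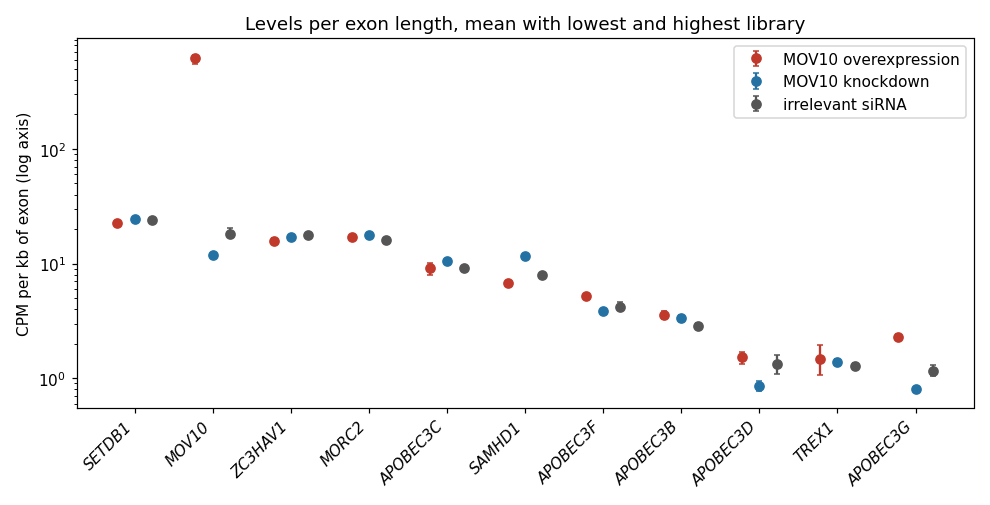
Level of each restriction gene and of MOV10 per kilobase of exon (CPM per kb, log axis), as the mean of each group with its lowest and highest library. MOV10 reached 621 CPM per kb with overexpression, while SETDB1, ZC3HAV1 and MORC2 stayed between 15.9 and 24.7 CPM per kb in each group's mean.

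The comparison of overexpression with control asked whether restriction genes change when MOV10 is abundant. APOBEC3G rose 1.99-fold, APOBEC3F 1.24-fold and APOBEC3B 1.23-fold, whereas SAMHD1 and ZC3HAV1 fell by smaller amounts. In all, 3 of 10 members rose and 2 fell in the quasi-likelihood F test of edgeR, with p-values adjusted over all genes tested and a call made under 0.05. Without overexpression replicate 2, control replicate 1 or control replicate 2 the members called numbered 3 in place of 5. Calls were common in this comparison: 25.2% of all tested genes were higher and 24.1% lower, 49.2% in all, so the members' share is near the background. Of the called genes 51.1% were higher, and 60.1% with library totals as scaling. The median log2 fold change of the 10 members was 0.17, beside 0.01 over all genes tested.

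Among the 5 deaminases of the 10 members, APOBEC3G, the family member best known for blocking HIV that lacks Vif, had the largest log2 fold change. It stood at 3.92, 4.43 and 4.22 CPM in the overexpression libraries, against 2.04, 1.92 and 2.40 CPM in the control libraries. Every overexpression library lay above every control library. These values rest on 94, 99 and 55 reads with overexpression and on 46, 37 and 36 reads in control cells. On the log2 scale the fold change was 0.99 ± 0.16 (SE, as for those that follow), with an adjusted p of 2.71e-05 by edgeR, and in absolute size it ranked 475 of the 15254 genes tested. It passed in all 18 alternative analyses, with log2 fold changes of 0.93 to 1.07 and adjusted p of 6.59e-08 to 0.000403. Among these, summing the reads of TREX1 and ATRIP left those of every member but TREX1 unchanged. It is therefore no separate check on the other members, here or below.

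APOBEC3F, which deaminates retroviral and retrotransposon DNA, stood at 16.2, 16.0 and 14.8 CPM with overexpression, against 12.3, 11.96 and 14.2 CPM in control cells. The groups did not overlap, but the lowest overexpression library and the highest control library were close. Its log2 fold change was 0.31 ± 0.09 (edgeR adjusted p = 0.00553). APOBEC3B, a mostly nuclear deaminase that inhibits LINE-1, stood at 6.63, 7.25 and 6.21 CPM with overexpression, against 5.76, 5.38 and 5.21 CPM in control cells, again without overlap. The log2 fold change of APOBEC3B was 0.30 ± 0.12 (edgeR adjusted p = 0.0374). This call was lost without overexpression replicate 1 (edgeR adjusted p = 0.0719) or 2 (0.136), without control replicate 2 (0.0988) or 3 (0.102), with DESeq2 (0.127) and at equal depth (0.181). Over its 18 alternatives the adjusted p ran from 0.0199 to 0.181.

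APOBEC3C and APOBEC3D did not pass with overexpression. APOBEC3C, a single-domain deaminase, stood at 28.6, 27.0 and 22.5 CPM with overexpression, against 25.1, 26.0 and 25.7 CPM in control cells, and the overexpression libraries lay on both sides of the control libraries. Its log2 fold change was 0.04, with a 95% interval of -0.12 to 0.20. APOBEC3D stood at 3.88, 4.25 and 3.37 CPM with overexpression, against 2.75, 3.31 and 4.01 CPM in control cells. The interval of its log2 fold change, -0.09 to 0.58, includes changes as large as that of APOBEC3F.

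SAMHD1 was the member that fell most with overexpression. It stood at 42.6, 38.9 and 43.5 CPM with overexpression, against 51.0, 46.5 and 47.9 CPM in control cells, all below the lowest control library. Its log2 fold change was -0.22 ± 0.06 (edgeR adjusted p = 0.00563), and the call was lost only without control replicate 1 (adjusted p = 0.0590, the highest of 18 alternatives, the lowest being 0.000733). ZC3HAV1 stood at 136, 127 and 129 CPM with overexpression, against 147, 149 and 138 CPM in control cells. Its groups did not overlap, and the log2 fold change was -0.15 ± 0.05 (edgeR adjusted p = 0.0188). That call did not hold with library totals as scaling (edgeR adjusted p = 0.0743), nor without overexpression replicate 2 (0.0597), control replicate 1 (0.0936) or control replicate 2 (0.0946). Over all 18 alternatives for ZC3HAV1 the adjusted p ran from 0.0120 to 0.0946.

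Neither chromatin member passed with overexpression. SETDB1 stood at 106, 106 and 102 CPM with overexpression, against 114, 110 and 111 CPM in control cells, with a log2 fold change of -0.10 and a 95% interval of -0.20 to 0.00. MORC2 stood at 102, 104 and 102 CPM with overexpression, against 94.0, 94.1 and 101 CPM in control cells, with an interval of -0.01 to 0.20. The adjusted p missed the threshold (edgeR, 0.0967 for SETDB1 and 0.119 for MORC2), although the libraries of each gene did not overlap between the groups. Non-overlapping libraries were found in 28.5% of all tested genes upward and in 27.5% downward, and in 4 and 3 of the 10 members. Scaled by library totals, MORC2 passed at 0.14 (edgeR adjusted p = 0.0319, the lowest of its 18 alternatives, the highest being 0.308).

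TREX1, the main cytosolic 3'-to-5' DNA exonuclease, had few reads, between 21 and 71 per library. It stood at 2.96, 2.06 and 1.61 CPM with overexpression, against 1.82, 1.97 and 2.07 CPM in control cells, so the overexpression libraries spread around the control libraries. The log2 fold change was 0.25, with an interval of -0.18 to 0.68. All of its annotated exon sequence lies within exons of ATRIP on the same strand, and ATRIP itself held 33.3, 33.3 and 34.3 CPM with overexpression, against 28.8, 28.4 and 28.0 CPM in control cells. When the reads of both genes were summed, a choice made after seeing the overlap, the pair was higher by 0.24 ± 0.07 (edgeR adjusted p = 0.00853). That sum is mostly ATRIP, which encodes the partner of the ATR checkpoint kinase, and how much of it is TREX1 cannot be told apart.

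**Figure D2:**
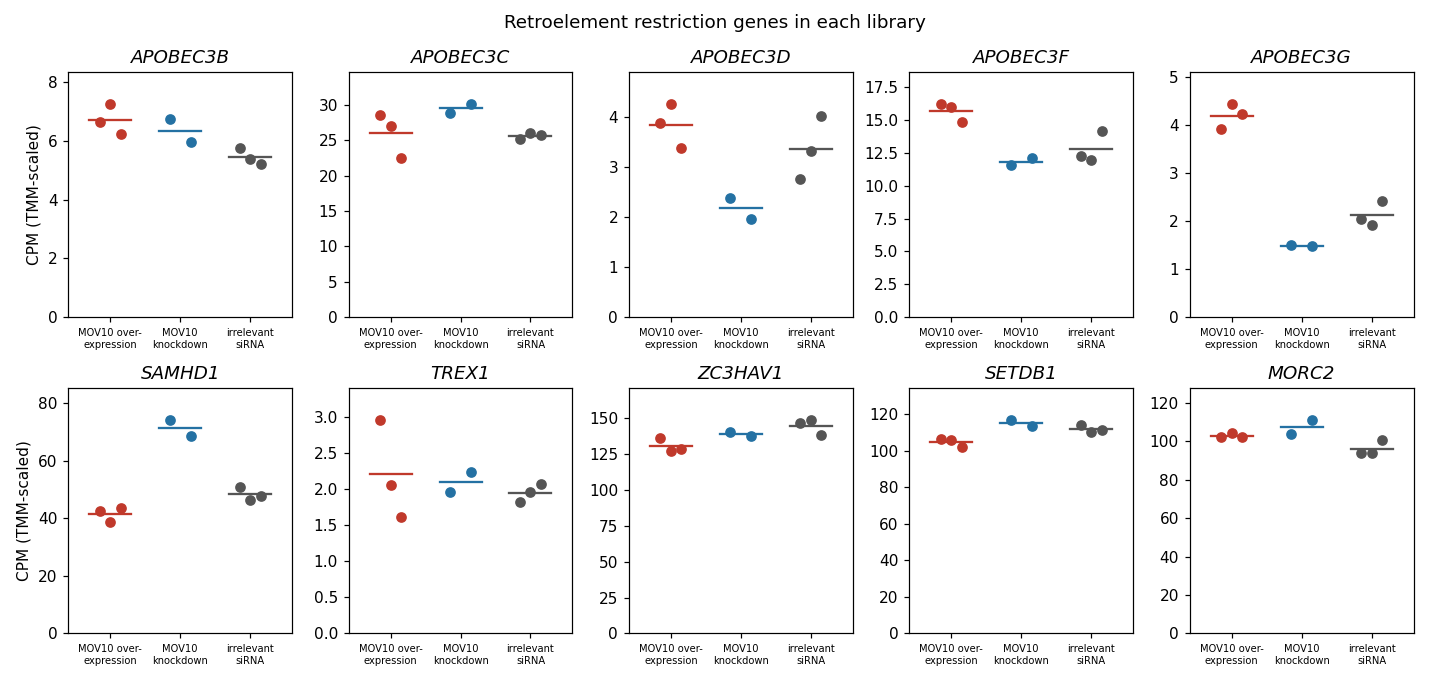
CPM of each of the 10 restriction genes in every library (points) with the group mean (bar), for overexpression, knockdown and control; each axis starts at 0. APOBEC3G sits highest in the 3 overexpression libraries (3.92 to 4.43 CPM), and SAMHD1 in the 2 knockdown libraries (68.7 and 74.2 CPM).

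The comparison of knockdown with control asked the same of cells with less MOV10, and used the same control libraries as the comparison above. SAMHD1 rose 1.47-fold, MORC2 rose 1.12-fold and APOBEC3D fell to 0.674 of its control level. Thus 2 of 10 members rose and 1 fell (edgeR, adjusted p under 0.05), and 1 member in all was called without knockdown replicate 2, knockdown replicate 3 or control replicate 2. Over all genes tested 19.9% were higher and 19.1% lower, 39% in all, so the members again did not stand above the background. Of the called genes 51.1% were higher, but 39.5% were so when libraries were scaled by their totals alone. The members' median log2 fold change was 0.07, beside -0.00095 over all genes tested. Libraries that did not overlap were found in 32.5% of all tested genes upward and 31.1% downward, and in 4 and 2 of the 10 members.

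SAMHD1, whose loss of function raises deoxynucleotide pools, stood at 74.2 and 68.7 CPM in the knockdown libraries, against 51.0, 46.5 and 47.9 CPM in the control libraries. Both knockdown libraries lay well above every control library. On the log2 scale SAMHD1 rose by 0.56 ± 0.07 (edgeR adjusted p = 1.37e-06), on the basis of 2339 and 1292 reads with knockdown and 1151, 899 and 717 reads in control cells. It passed in all 18 alternative analyses, with log2 fold changes of 0.50 to 0.61. Exons of TLDC2 on the opposite strand cover 18.8% of the exon length of SAMHD1, those of MORC2-AS1 25.2% of MORC2, those of APOBEC3B-AS1 12.9% of APOBEC3B and those of CERS2 8.37% of SETDB1. The strand setting of the counting is not given in the sources used here, so reads from these stretches cannot be told apart. MORC2-AS1 itself held 0 to 3 reads per library.

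APOBEC3D stood at 2.38 and 1.97 CPM with knockdown, against 2.75, 3.31 and 4.01 CPM in control cells, below all of them. Its log2 fold change was -0.57 ± 0.19 (edgeR adjusted p = 0.0224) and rests on 75 and 37 reads with knockdown. The call was lost without knockdown replicate 2 (edgeR adjusted p = 0.0588) or 3 (0.115), without control replicate 2 (0.0542) or 3 (0.0977), and with DESeq2 (0.0574), within a range of 0.00940 to 0.115 over 18 alternatives. APOBEC3G stood at 1.49 CPM in both knockdown libraries, below the 2.04, 1.92 and 2.40 CPM of the control libraries, but did not pass (log2 fold change -0.49 ± 0.20, edgeR adjusted p = 0.0617). Its 95% interval was -0.92 to -0.07, and it passed in 1 of 18 alternatives, with library totals (edgeR adjusted p = 0.0416, the lowest, the highest being 0.389).

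The remaining deaminases did not pass with knockdown. APOBEC3C stood at 28.9 and 30.1 CPM, above the control values of 25.1, 26.0 and 25.7 CPM, with a log2 fold change of 0.20 ± 0.08 (edgeR adjusted p = 0.0624). It passed in 5 of 18 alternatives, among them the fit of knockdown and control libraries alone (edgeR adjusted p = 0.0127, in a range of 0.0127 to 0.206). APOBEC3B stood at 6.72 and 5.95 CPM, against 5.76, 5.38 and 5.21 CPM in control cells, above all of them but with an interval of -0.04 to 0.48. APOBEC3F stood at 11.5 and 12.1 CPM, against 12.3, 11.96 and 14.2 CPM in control cells (interval -0.31 to 0.09).

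Of the members outside the family, MORC2 stood at 104 and 111 CPM with knockdown, against 94.0, 94.1 and 101 CPM in control cells, a log2 fold change of 0.16 ± 0.06 (edgeR adjusted p = 0.0302). This call did not hold without knockdown replicate 2 (edgeR adjusted p = 0.0539) or 3 (0.248), control replicate 1 (0.112) or 2 (0.111), or overexpression replicate 1 (0.0531), nor with library totals (0.123) or at equal depth (0.0515). Its 18 alternatives ran from 0.00481 to 0.248. ZC3HAV1 stood at 141 and 138 CPM with knockdown (interval -0.17 to 0.06), SETDB1 at 117 and 113 CPM (interval -0.07 to 0.15) and TREX1 at 1.97 and 2.23 CPM (interval -0.37 to 0.56), and each overlapped the control libraries. Summed with ATRIP, TREX1 was higher by 0.28 ± 0.08 (edgeR adjusted p = 0.00713).

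Overexpression was also set directly against knockdown. APOBEC3D, APOBEC3F and APOBEC3G were all higher with overexpression than with knockdown, while APOBEC3B and APOBEC3C did not pass. Calls by edgeR placed 3 of 10 members higher and 2 lower in this comparison, beside 29.3% higher and 28.1% lower of all tested genes, 57.4% in all. Of the called genes 51.0% were higher, and 65.5% with library totals, a scaling that placed the median gene at 0.10 on the log2 scale. Libraries did not overlap in 35.4% of all tested genes upward and 33.7% downward, and in 3 and 4 of the 10 members.

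APOBEC3G averaged 4.19 ± 0.258 CPM with overexpression (SD, n = 3) and 1.49 ± 0.00110 CPM with knockdown (n = 2), a log2 fold change of 1.48 ± 0.18 (edgeR adjusted p = 6.80e-07). The knockdown values rest on 47 and 28 reads. APOBEC3D averaged 3.83 ± 0.441 CPM with overexpression and 2.17 ± 0.291 CPM with knockdown, a log2 fold change of 0.81 ± 0.18 (edgeR adjusted p = 0.000800). APOBEC3F averaged 15.7 ± 0.757 CPM with overexpression and 11.8 ± 0.373 CPM with knockdown, a log2 fold change of 0.42 ± 0.09 (edgeR adjusted p = 0.000723). In each of these 3 genes every overexpression library lay above both knockdown libraries, and the call held in 18 of 18 alternatives. APOBEC3B had a log2 fold change of 0.08 (interval -0.17 to 0.33) and APOBEC3C of -0.16 (interval -0.33 to 0.01).

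SAMHD1, by contrast, was lower with overexpression. It averaged 41.7 ± 2.44 CPM with overexpression and 71.4 ± 3.87 CPM with knockdown, a log2 fold change of -0.78 ± 0.07 (edgeR adjusted p = 8.39e-09), and the call held in 18 of 18 alternatives. Each overexpression library was below both knockdown libraries. SETDB1 averaged 105 ± 2.43 CPM with overexpression and 115 ± 2.46 CPM with knockdown (log2 fold change -0.14 ± 0.05, edgeR adjusted p = 0.0334). That call held in 10 of 18 alternatives and was lost without either knockdown library, overexpression replicate 1, or control replicate 1 or 2, with adjusted p up to 0.218. It was also lost with only the compared groups in the fit (edgeR adjusted p = 0.0804), at equal depth (0.121) and with library totals (0.424), in a range of 0.0258 to 0.424. The intervals were -0.20 to 0.02 for ZC3HAV1, -0.18 to 0.06 for MORC2 and -0.29 to 0.60 for TREX1, none of which passed.

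**Figure D3:**
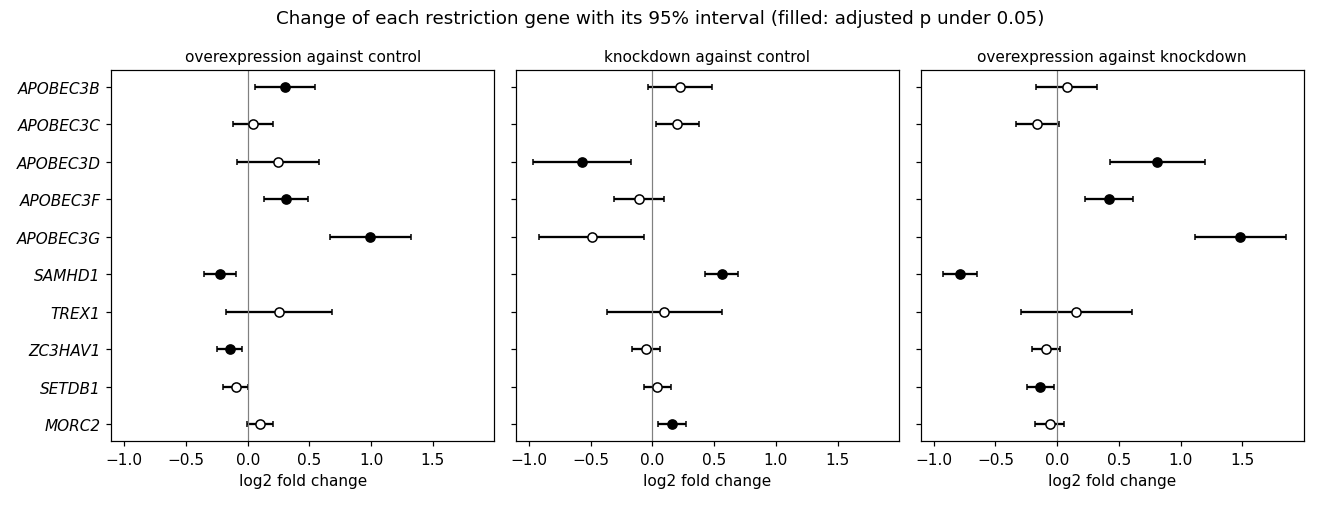
Log2 fold change of each restriction gene in the 3 comparisons, with its 95% interval; filled points passed at an adjusted p under 0.05 (edgeR). APOBEC3G lies at 0.99, -0.49 and 1.48 from left to right, and SAMHD1 at -0.22, 0.56 and -0.78.

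Because reads may be split unevenly among near-identical relatives, the 7 APOBEC3 genes were also counted as one, a choice made after seeing the data. Their summed level was 60.1, 59.4 and 52.3 CPM with overexpression, 52.2 and 52.4 CPM with knockdown, and 48.4, 49.0 and 52.0 CPM in control cells. The sum was higher with overexpression than in control cells by 0.21 ± 0.06 on the log2 scale (edgeR adjusted p = 0.00625), a call lost without overexpression replicate 1 (adjusted p = 0.0516, the highest of 17 alternatives, the lowest being 7.91e-05). With knockdown the sum differed from control by 0.07, with an interval of -0.07 to 0.21. For overexpression against knockdown the sum differed by 0.14 ± 0.07 and did not pass (edgeR adjusted p = 0.0758). It passed in 2 of 17 alternatives, with library totals (0.00696) and without overexpression replicate 3 (0.00393, the lowest, the highest being 0.265).

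Within the family, APOBEC3C gave the largest share of reads in every group and APOBEC3G a small but shifting share. APOBEC3G took 6.52%, 7.46% and 8.06% of the family's reads in the overexpression libraries, 2.86% and 2.84% in the knockdown libraries, and 4.22%, 3.91% and 4.63% in the control libraries. No overexpression or knockdown library overlapped the control libraries. For single libraries the exact (Clopper-Pearson) 95% intervals, which cover counting error only, ran from 6.13% to 10.4% in overexpression replicate 3 and from 1.90% to 4.08% in knockdown replicate 3. The mean share was 7.35 ± 0.779% with overexpression and 4.25 ± 0.359% in control cells (SD, n = 3 each), and the exact two-sided permutation p was 0.1, the smallest that 3 against 3 libraries can give (0.3 after Benjamini-Hochberg adjustment over 12 comparisons). With knockdown the mean share was 2.85 ± 0.0103% (n = 2), and the exact permutation p was 0.2, again the smallest possible. APOBEC3C took 45.3 ± 2.31% with overexpression, 56.5 ± 1.54% with knockdown (n = 2) and 51.5 ± 1.88% in control cells (n = 3).

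APOBEC3H, the last gene of the cluster and no member of the 10, was examined after its values had been seen. It had 21, 11 and 16 reads with overexpression, 36 and 14 with knockdown, and 9, 7 and 7 in control cells. The log2 fold change was 0.99 ± 0.38 with overexpression (edgeR adjusted p = 0.0355) and 1.27 ± 0.38 with knockdown (adjusted p = 0.0109). The overexpression call was lost in 6 of 18 alternatives, with adjusted p up to 0.112 without overexpression replicate 3, and the knockdown call in 2, with adjusted p up to 0.280 without knockdown replicate 2. APOBEC3A had no read in any library, where 3 counts, the limit that a count of 0 allows, would be 0.0951 to 0.230 CPM.

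**Figure D4:**
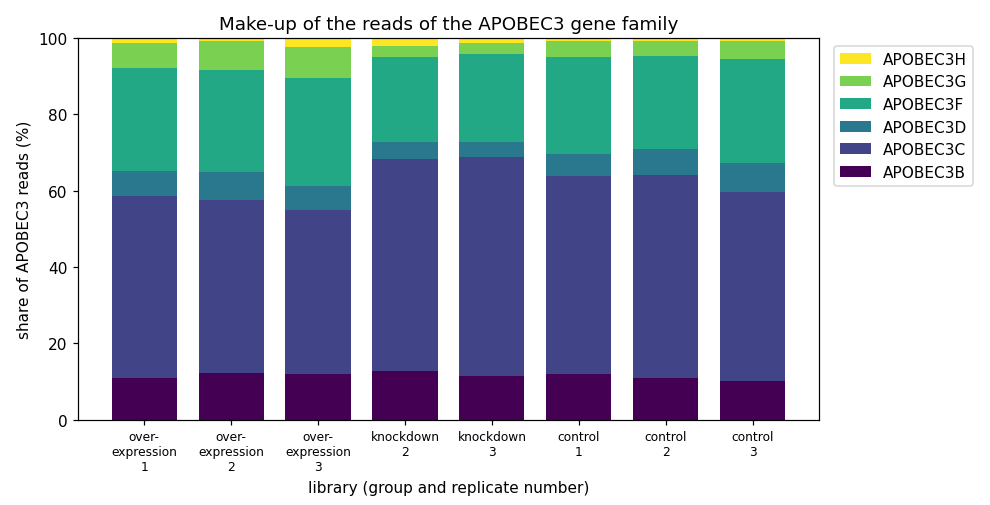
Share of each APOBEC3 gene in the reads of the family (%), one stacked bar per library; APOBEC3A had no read. APOBEC3G takes 6.52% to 8.06% in the overexpression libraries, 2.84% to 2.86% in the knockdown libraries and 3.91% to 4.63% in the control libraries.

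Partners and relatives of the members were described with 7 lists of 93 gene symbols in all. Of these, 90 were among the symbols counted and 79 were tested. The symbols not found, TASOR, CGAS and STING1, are newer names of FAM208A, MB21D1 and TMEM173, which were counted. With overexpression 21 of the 79 rose and 29 fell (of all genes, 25.2% and 24.1%). With knockdown 14 of the 79 rose and 18 fell (of all genes, 19.9% and 19.1%). The median log2 fold changes were 0.00 with overexpression and -0.02 with knockdown, close to those of all genes tested. In all 50 of 79 were called with overexpression, beside 7508 of all 15254 genes (49.2%), and 32 of 79 with knockdown, beside 5943 (39%). The share of the lists was thus above that of all genes with overexpression and near it with knockdown. Since the lists were chosen with earlier results of these data known, no more is read from this difference. The knockdown count was 16 without knockdown replicate 2 and 21 without control replicate 2.

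For SETDB1 and MORC2 the list held the HUSH complex and H3K9 methylation, the silencing mark that SETDB1 writes. With overexpression 5 of 16 tested genes rose and 6 fell (of all genes, 25.2% and 24.1%). With knockdown 4 rose and 3 fell (of all genes, 19.9% and 19.1%). The 7 calls with knockdown became 3 without knockdown replicate 2 and 11 with only the compared groups in the fit. ATF7IP, the cofactor that stabilises SETDB1 in the nucleus, averaged 181 CPM with overexpression and 141 CPM in control cells (log2 fold change 0.35 ± 0.05, edgeR adjusted p = 7.24e-06). CBX3 and CBX5, which encode HP1 proteins that bind the mark, averaged 204 and 213 CPM with knockdown, against 332 and 324 CPM in control cells. Both fell with knockdown, with log2 fold changes of -0.70 ± 0.06 and -0.61 ± 0.06 (edgeR adjusted p = 7.77e-09 and 1.79e-07), and CBX5 rose by 0.33 ± 0.05 with overexpression (2.87e-05). Other readers in the list were named after their values were seen. The remaining HP1 gene, CBX1, also fell with knockdown but by less, at 0.18 (SE 0.05, edgeR adjusted p = 0.0136). MPHOSPH8, the HUSH subunit that binds the mark, did not pass. It stood at 52.5 and 48.8 CPM with knockdown, against 50.1, 48.3 and 48.5 CPM in control cells.

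DNA methylation is the other silencing mark of retroelements. Of 8 tested genes 2 rose and 2 fell with overexpression (of all genes, 25.2% and 24.1%). The same counts were found with knockdown (of all genes, 19.9% and 19.1%). The 4 calls with knockdown became 2 without knockdown replicate 3 or control replicate 2. UHRF1, which brings the maintenance methyltransferase to replicated DNA, averaged 66.5 CPM with overexpression and 95.7 CPM in control cells (log2 fold change -0.53 ± 0.05, edgeR adjusted p = 1.88e-07). TET1, which oxidises methylcytosine, rose by 0.58 ± 0.07 (1.94e-06). With knockdown the maintenance methyltransferase gene DNMT1 rose by 0.24 ± 0.05 (edgeR adjusted p = 0.000949) and TET2 by 0.34 ± 0.07 (0.00119). UHRF1 also fell with knockdown, averaging 83.1 CPM, a call that held in 16 of 18 alternatives. TET2 also rose by 0.24 ± 0.07 with overexpression (edgeR adjusted p = 0.00717), a call lost without control replicate 1 (0.0504, the highest of 18 alternatives, the lowest being 7.20e-05).

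The list around SAMHD1 held genes of deoxynucleotide supply and the cell-cycle genes CDK1, CDK2 and CCNA2, 10 in all. With overexpression 5 fell, CCNA2 among them, and 0 rose (of all genes, 24.1% and 25.2%). With knockdown 3 rose, CDK2 among them, and 3 fell (of all genes, 19.9% and 19.1%). The 6 calls with knockdown became 3 without knockdown replicate 2 or control replicate 2. RRM2, the small subunit of ribonucleotide reductase, fell in both: it averaged 232 CPM with overexpression, 200 CPM with knockdown and 272 CPM in control cells. The log2 fold changes were -0.23 ± 0.05 with overexpression and -0.45 ± 0.05 with knockdown (edgeR adjusted p = 0.000301 and 1.31e-06). RRM1, the large subunit, fell by 0.21 (SE 0.04) with overexpression (0.000413), and DCK, which salvages deoxycytidine, fell by 0.45 (SE 0.07) with knockdown (edgeR adjusted p = 1.77e-05).

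Of 13 cofactors of ZC3HAV1 and other RNA decay genes, 3 rose and 5 fell with overexpression (of all genes, 25.2% and 24.1%). With knockdown 3 rose and 1 fell (of all genes, 19.9% and 19.1%). The 4 calls with knockdown became 7 with only the compared groups in the fit. TRIM25, a ubiquitin ligase that ZC3HAV1 needs for its antiviral action, averaged 56.8 CPM with overexpression and 70.9 CPM in control cells (log2 fold change -0.32 ± 0.05, edgeR adjusted p = 5.68e-05). The helicase gene DHX30 also fell, at -0.33 ± 0.05 (edgeR adjusted p = 4.47e-05). N4BP1 and RIOK3 rose with both treatments: N4BP1, an RNA nuclease gene, by 0.32 ± 0.06 with overexpression and 0.43 ± 0.07 with knockdown, and RIOK3 by 0.26 ± 0.05 with overexpression and 0.35 ± 0.06 with knockdown (highest edgeR adjusted p = 0.000454).

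TREX1, which degrades cytosolic DNA, was listed with other genes of Aicardi-Goutières syndrome and of cytosolic nucleic acid sensing. The list mixes genes whose products remove nucleic acids with sensors and their adaptors, so its counts do not speak for a shared task. In that list 4 of 14 genes rose and 7 fell with overexpression (of all genes, 25.2% and 24.1%). With knockdown 0 rose and 4 fell (of all genes, 19.9% and 19.1%). The 4 calls with knockdown became 2 without knockdown replicate 2, and 8 without overexpression replicate 3 or with only the compared groups in the fit. TMEM173, which encodes the sensor adaptor STING, averaged 34.5 CPM with overexpression, 26.2 CPM with knockdown and 41.5 CPM in control cells. It fell in both, by 0.26 (SE 0.08) with overexpression (edgeR adjusted p = 0.00746) and by 0.67 (SE 0.09) with knockdown (4.47e-06). Without overexpression replicate 1 the first of these was lost (edgeR adjusted p = 0.0742, the highest of 18 alternatives, the lowest being 0.000118). IFI16, a DNA sensor, rose by 0.39 ± 0.08 with overexpression (0.000307) and fell by 0.50 (SE 0.09) with knockdown (edgeR adjusted p = 0.000194). The DNASE1-like nuclease gene DNASE1L1 rose by 0.52 ± 0.08 with overexpression (edgeR adjusted p = 1.42e-05), where MAVS, the adaptor of RNA sensors, fell by 0.26 (SE 0.05, adjusted p = 8.48e-05). MAVS also fell with knockdown, averaging 172 CPM against 198 CPM in control cells, a call that held in 17 of 18 alternatives. With knockdown DNASE1L1 fell by 0.26 (SE 0.09, edgeR adjusted p = 0.0271), a call lost without knockdown replicate 2 (0.490), control replicate 2 (0.0631) or control replicate 3 (0.0818), in a range of 0.00442 to 0.490 over 18 alternatives.

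Among other restriction factors of retroviruses and LINE-1, 5 of 15 rose and 3 fell with overexpression (of all genes, 25.2% and 24.1%). With knockdown 1 rose and 4 fell (of all genes, 19.9% and 19.1%). Those 5 calls with knockdown became 2 without knockdown replicate 2, without control replicate 2 or with DESeq2, and 3 without control replicate 3. They became 8 without overexpression replicate 3 or with only the compared groups in the fit. TRIM5, which recognises retroviral capsids, averaged 31.9 CPM with overexpression and 20.4 CPM in control cells (log2 fold change 0.65 ± 0.07, edgeR adjusted p = 2.46e-07). SLFN11, which blocks translation of viral RNA through transfer RNA, rose by 0.32 ± 0.06 with overexpression (edgeR adjusted p = 0.000267). IFITM1, an interferon-induced membrane protein gene, averaged 7.55 CPM with overexpression, 2.51 CPM with knockdown and 4.79 CPM in control cells. It rose by 0.68 ± 0.14 with overexpression (edgeR adjusted p = 0.000491) and fell by 0.95 (SE 0.19) with knockdown (0.000407). ZCCHC3, reported to restrict LINE-1, rose by 0.37 ± 0.06 with knockdown (edgeR adjusted p = 4.72e-05). It was lower with overexpression, with a log2 fold change of -0.15 ± 0.05 (edgeR adjusted p = 0.0292). That overexpression call held in 13 of 18 alternatives.

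The list of other cytidine and adenosine deaminases held 4 tested genes, APOBEC3H included. With overexpression 2 rose and 2 fell (of all genes, 25.2% and 24.1%). With knockdown 1 rose and 1 fell (of all genes, 19.9% and 19.1%). The 4 calls with overexpression became 1 without control replicate 1, and 2 without overexpression replicate 1, without control replicate 2 or with DESeq2. The 2 calls with knockdown became 0 without knockdown replicate 2 and 1 with DESeq2. The adenosine deaminase genes ADAR and ADARB1 both fell with overexpression, by 0.24 each (SE 0.04 and 0.07, edgeR adjusted p = 9.43e-05 and 0.00812), the call of ADARB1 being lost without control replicate 1 (0.0627, the highest of 18 alternatives, the lowest being 0.00428). CDA, a free cytidine deaminase, averaged 0.827 CPM with knockdown and 1.71 CPM in control cells and fell by 1.07 (SE 0.28, edgeR adjusted p = 0.00512), a call lost without knockdown replicate 2 (0.142, the highest of 18 alternatives, the lowest being 0.000625). With overexpression CDA averaged 2.32 CPM and rose by 0.52 ± 0.21 (edgeR adjusted p = 0.0444). That call was lost in 7 of 18 alternatives, whose adjusted p ran from 0.00965 to 0.224: without overexpression replicate 1 (0.137) or 2 (0.159), without control replicate 1 (0.179) or 2 (0.110), with DESeq2 (0.184), with the replicate number as a block (0.0646) and at equal depth (0.224).

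**Figure D5:**
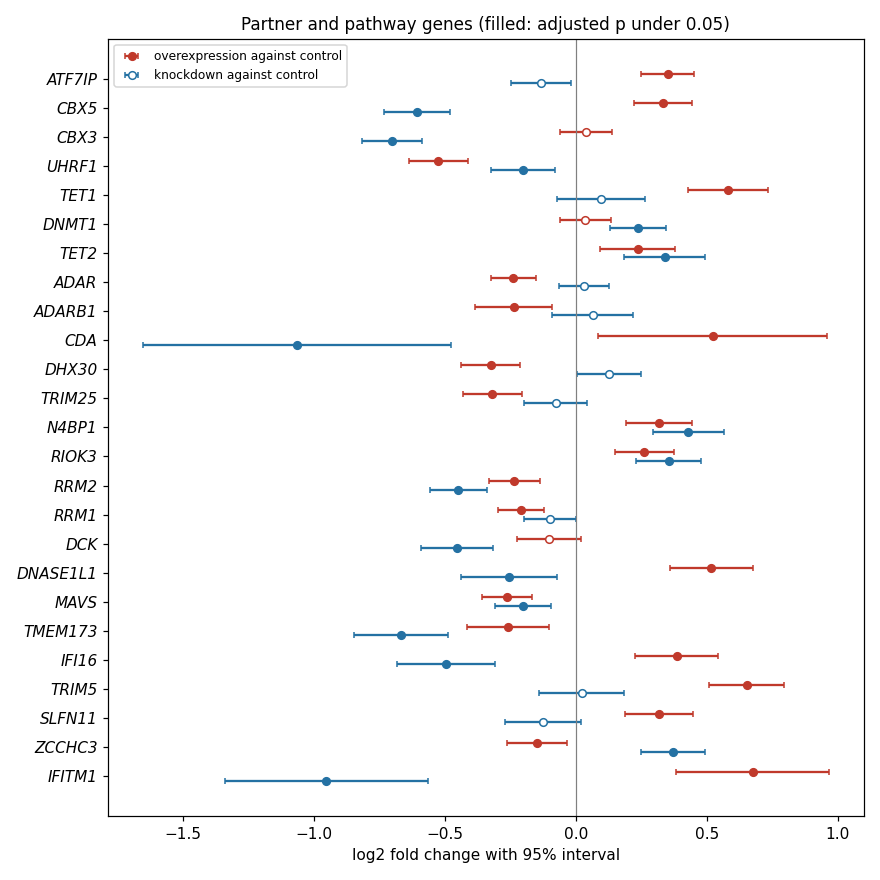
Log2 fold change with 95% interval of partner and pathway genes, chosen from each list by their smallest adjusted p, for overexpression and knockdown against the same control libraries; filled points passed at an adjusted p under 0.05 (edgeR). CBX5, IFI16, DNASE1L1, CDA and IFITM1 passed above 0 with overexpression and below 0 with knockdown, and ZCCHC3 passed the other way round. N4BP1, RIOK3 and TET2 passed above 0 with both, and MAVS, UHRF1, RRM2 and TMEM173 passed below 0 with both. The calls of CDA, DNASE1L1, TET2, MAVS, UHRF1, TMEM173 and ZCCHC3 did not hold under every alternative.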

How the data were processed

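The authors deposited 1 table of read counts per gene symbol, not normalized, for 8 libraries. Build hg19 is named in the submitters' processing notes beside edgeR, SAMtools 0.1.18, HTSeq 0.5.3p9, TopHat2 2.0.8, Trimmomatic 0.22 and CASAVA 1.8.2, without their roles. Trizol RNA and stranded TruSeq libraries were used, per the labels' protocols. Groups and replicate numbers come from the titles.

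Genes passing edgeR's filterByExpr (minimum count 10, minimum total 15) were tested in R 4.3.3 with edgeR 4.0.16: TMM scaling, glmQLFit and the two-sided quasi-likelihood F test, with all libraries fitted together and 1 mean for each group, adjusted by Benjamini-Hochberg over 15254 genes. Standard errors and 95% intervals come from that fit. Replicates of a group differed by more than sampling noise (chi-square per gene 1.87 to 8.01). Exon lengths and sequences come from GENCODE 29 (GRCh38), another build than that of the counts. The members and lists were chosen with earlier results of these data known. Besides MOV10, the members and APOBEC3H, the text names up to 2 genes per list and comparison with control, by smallest adjusted p among called genes with a mean of at least 1 CPM. SciPy 1.17.1 gave the permutation tests. Alternatives were other scalings and filters, DESeq2 1.42.0, fewer groups, a replicate block, MOV10 left out, equal depth, summed overlapping genes and leaving out each library.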

Additional observations from a re-analysis of the deposited data

How the results depend on the processing

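For MOV10, the 10 members and the APOBEC3 sum in 3 comparisons, 330 of 354 values kept their direction and side of the threshold under settings other than leaving out a library, and 258 of 288 when a library was left out. The 354 include values from summing TREX1 with ATRIP, which left the reads of the other members unchanged. Leaving out each library gave 3 to 5 members called with overexpression, 1 to 4 with knockdown and 4 to 5 for overexpression against knockdown, and 39 to 50, 16 to 47 and 28 to 53 of the pathway genes in the same order of comparisons; the 28 came without knockdown replicate 2. Fitted with the compared groups only, 49 pathway genes were called with knockdown (21 higher, 28 lower) in place of 32. The cause was not tested.

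Signs reversed for log2 fold changes that did not pass in the analysis reported. When libraries were left out in turn, for overexpression against control APOBEC3C ran from -0.037 to 0.12, TREX1 from -0.042 to 0.38 and CBX3 from -0.0022 to 0.080. For knockdown against control ADARB1 ran from -0.033 to 0.14 and TRIM5 from -0.025 to 0.082. For overexpression against knockdown TREX1 ran from -0.13 to 0.28 and APOBEC3H from -0.51 to 0.12. At equal depth APOBEC3B was at -0.034 with knockdown and TREX1 at -0.012 for overexpression against knockdown, and TREX1 with ATRIP was there at -0.038. With library totals SETDB1 was at -0.0082, ADAR at -0.015 and TRIM5 at -0.023 with knockdown, and MORC2 at 0.026 and MAVS at 0.024 for overexpression against knockdown. With 1 knockdown library left, it was assumed to vary like the other libraries.

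No sign was seen that replicate numbers pair the libraries: deviations of same-numbered libraries from their group mean correlated at -0.0847 to 0.0900. With so few libraries per group these deviations depend on each other, and those of the 2 knockdown libraries mirror each other. The check therefore cannot show that there was no pairing. With the number as a block, MORC2 with knockdown was at 0.15 (edgeR adjusted p = 0.0825) and no longer passed, and no other member's call changed; CDA with overexpression was also lost. APOBEC3D, APOBEC3G, APOBEC3H and TREX1 rest on fewer than 100 reads in each library, so differences as small as those of ZC3HAV1 could not be detected in them.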
